A study of Mus musculus with 4 samples.

Results

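The genes of the mitochondrial ribosomal proteins, whose mouse symbols begin with Mrpl for the large subunit or Mrps for the small subunit, were followed in brown adipose tissue (BAT) after the kinase PERK was switched on in fat. Probes of the array were taken as members when their transcript accession matched a RefSeq gene with such a symbol and a digit after it. This gave 99 probes of 78 genes, of 55681 probes and 20141 named genes on the array. Of these, 98 probes of 77 genes were well above background on all 4 arrays and were compared, among 24973 probes and 12788 named genes. No member entered the comparison through 1 group alone. The remaining gene, Mrpl21, had 1 probe that was well above background on none of the 4 arrays.

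All 4 samples came from male mice, 8 weeks old by the study's legend, on a C57/BL6N background that carried the maP2::Fv2E-PERK transgene (Tg), so the control samples carried it too. Fv2E-PERK is a PERK whose 2 molecules are brought together by the drug AP20187 (AP), which activates the kinase and the integrated stress response. The aP2 (Fabp4) promoter that drives it is also active in monocytes and macrophages. The vehicle group (n = 2) received water with 1.75% Tween-20, 10% PEG-400 and 4% ethanol, and the AP group (n = 2) received AP at 1 ng per g of body weight by the sample labels and 0.05 mg/kg by the study's legend. The BAT was taken 12 h after the intraperitoneal injection. The labels number the samples of a group 1 and 2 and do not state that each came from its own mouse, so the errors below measure the spread between these samples. Transcript levels are log2 signals minus the 75th percentile of the same array, and they are compared between samples of 1 probe and never between probes.

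Mitochondria keep a ribosome of their own, which translates the few mRNAs of mitochondrial DNA into core subunits of the respiratory chain. Its RNAs come from mitochondrial DNA, whereas all of its proteins are encoded in the nucleus, made in the cytosol and imported. Many of them descend from proteins of the bacterial ribosome, and others were added in the mitochondrial lineage. Brown fat is rich in mitochondria, whose respiratory chain feeds the heat-producing uncoupling protein Ucp1. The transcription factors NRF1 and GABP, the second of which belongs to the ETS family, are known regulators of nuclear genes for mitochondrial proteins, while ATF4 is the transcription factor that acts downstream of PERK.

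Promoters are shown because 36 of the 75 windows found hold one or both of a pair of motifs that the choice of members did not use. RefSeq promoter windows, from 250 bases before to 50 bases after a start on GRCm38.p6, were found for 69 of the 78 genes (75 windows, since some genes have several starts). The letters GCGCANGCG, the core of the NRF1 site on either strand, stood in 16 of the 75 windows (21.3%), against 12.3% of the 12960 windows of compared genes and 6.25% of all 32851 windows. The ETS core CCGGAAG, on either strand, stood in 26 windows (34.7%), against 16.2% and 8.86%. At least 1 of these motifs was found in 36 windows (48.0% against 25.9% and 13.9%), and both were found in 6. The core of the ATF4 site, TGATGNAA, stood in 0 of the 75 windows, in 2.38% of the windows of compared genes and in 3.97% of all windows, which says only that these letters are not in these windows. The 150 bases before the start follow for those of the 12 members with the lowest and highest fold changes that hold a match there. Capitals mark the NRF1 core in Mrpl12, Mrpl32 and Mrpl39, and the ETS core in the other genes. A run of 10 capitals is a palindrome in which the NRF1 core was counted on both strands.
Mrps27 (chr13:99344636-99344785, plus strand): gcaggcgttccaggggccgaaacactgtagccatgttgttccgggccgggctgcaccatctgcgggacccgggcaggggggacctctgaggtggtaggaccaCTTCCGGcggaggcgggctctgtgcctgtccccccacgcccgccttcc
Mrpl53 (chr6:83108958-83109107, plus strand): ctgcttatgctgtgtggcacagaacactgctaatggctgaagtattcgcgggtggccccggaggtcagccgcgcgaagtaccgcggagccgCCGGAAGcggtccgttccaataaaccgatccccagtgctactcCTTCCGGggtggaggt
Mrpl51 (chr6:125192050-125192199, plus strand): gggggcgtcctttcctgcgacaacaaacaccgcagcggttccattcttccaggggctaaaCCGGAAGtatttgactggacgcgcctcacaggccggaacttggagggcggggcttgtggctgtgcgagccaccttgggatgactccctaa
Mrpl12 (chr11:120484487-120484636, plus strand): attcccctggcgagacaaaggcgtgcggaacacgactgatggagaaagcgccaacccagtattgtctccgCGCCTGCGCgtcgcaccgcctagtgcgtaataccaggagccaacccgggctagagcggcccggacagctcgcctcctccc
Mrps18a (chr17:46110854-46111003, plus strand): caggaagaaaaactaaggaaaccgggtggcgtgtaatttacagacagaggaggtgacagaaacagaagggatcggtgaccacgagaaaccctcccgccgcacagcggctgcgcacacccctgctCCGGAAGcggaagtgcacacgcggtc
Mrpl32 (chr13:14613038-14613187, minus strand): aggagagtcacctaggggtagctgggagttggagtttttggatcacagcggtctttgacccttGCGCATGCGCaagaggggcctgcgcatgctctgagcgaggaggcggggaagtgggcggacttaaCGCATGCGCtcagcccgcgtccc
Mrpl39 (chr16:84735245-84735394, minus strand): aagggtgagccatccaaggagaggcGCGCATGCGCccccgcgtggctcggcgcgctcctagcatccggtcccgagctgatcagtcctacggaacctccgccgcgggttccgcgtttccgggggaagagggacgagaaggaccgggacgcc
In these windows the ETS core began 26 bases before the start of Mrps18a and 48 bases before that of Mrps27. Mrpl53 held it at 59 and at 16 bases before its start. The NRF1 core of Mrpl12 began 80 bases before its start. A match is a description of the letters and not a site at which a factor was measured.

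**Figure D1:**
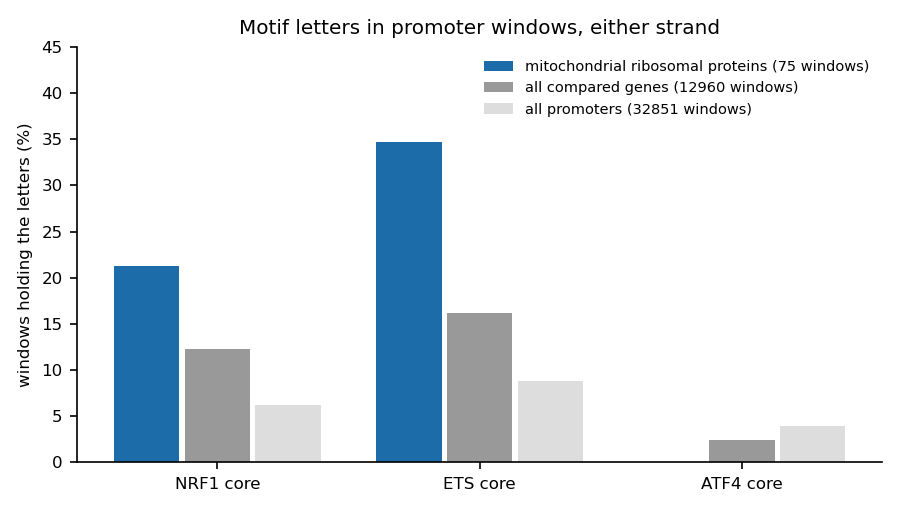
Share of promoter windows (y axis, %) that hold the NRF1, ETS or ATF4 core on either strand, for the 75 windows of the mitochondrial ribosomal protein genes, the 12960 windows of compared genes and all 32851 windows. The NRF1 core reached 21.3% and the ETS core 34.7% of the members' windows, and the ATF4 core was in none of them.

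Across the array, limma called 0 of the 24973 probes at an adjusted p under 0.05, while 1515 had an unadjusted p under 0.05; the smallest adjusted p was 0.80. An exact permutation test of 2 samples against 2 cannot give a p below 0.333. Trib3, an ATF4 target that marks activation of the integrated stress response, stood at 2.78 and 2.33 in the vehicle samples, but at 6.26 and 8.01 after AP, and Ddit3 was also higher in both AP samples. The 4 arrays lay on 1 slide and were scanned once. The barcode of each array ends in 2 position numbers, taken here without a reading as row or column. The first was 2 for vehicle sample 2 and 1 for the other samples. The last was 1 for both vehicle samples, and 3 and 4 for AP samples 1 and 2. The last number and treatment therefore cannot be told apart. Neither can the first number and the difference between the vehicle samples. In markers of other cell types, vehicle sample 1 was far below the other samples for muscle and vehicle sample 2 far above them for leukocytes, as described with the comparison of the samples. Ucp1, Cidea and Cox8b, which mark brown fat, were well above background on all 4 arrays.

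With AP, the mitochondrial ribosomal protein genes stayed close to their vehicle levels. Their median log2 fold change was -0.054 over 77 genes (0.011 over all named genes), and the genes ranged from -0.542 for Mrpl18 to 0.437 for Mrps18a, or from 0.687-fold to 1.35-fold. Of the 77 genes, 44 were below 0 and 33 above, so that 57.1% were lower with AP against 48.6% of all named genes. Both AP samples were below both vehicle samples for 12 genes (15.6%, close to the 17.3% of all named genes). Both were above for 1 gene (1.30%, against 20.1%), and the samples overlapped for the other 64. No member had an unadjusted p under 0.05 in limma by the probe that stands for its gene (0 of 77, against 6.04% of all named genes), and none had an adjusted p under 0.05 (0.00% of all named genes). The lowest p of a gene was 0.0814 (adjusted p = 0.80), for Mrpl18. No member differed by 2-fold or more, against 4.70% of all named genes.

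The spread of the members was narrow beside that of the array. This was not particular to them, since genes of the cytosolic ribosome and nuclear genes of the respiratory chain had similar shares. Their log2 fold changes had quartiles of -0.158 and 0.071, against -0.228 and 0.255 over all named genes. A log2 fold change within 0.5 of 0 was found for 76 of the 77 genes (98.7%, against 79.2%). The share was 98.8% for the cytosolic ribosome and 94.0% for the respiratory chain. The standard errors ran from 0.198 to 0.491 with a median of 0.254, close to the median of 0.261 over all named genes. The 95% interval stayed within 2-fold in both directions for 70 members (90.9%, against 53.0%). For the cytosolic ribosome it did so in 96.3% of the genes, and for the respiratory chain in 85.5%. For the other members these 4 samples do not bound a change to less than 2-fold. Other scalings moved the members and all named genes together. With arrays scaled to their medians the members had a median of 0.031 and all named genes 0.095, with 44 members above 0, and in the deposited log2 table they had -0.215 and -0.152, with 7 members above 0. The median of the members less that of all named genes was -0.065 in the main scaling, -0.064 and -0.063 in these settings, and -0.106 with normexp background correction.

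**Figure D2:**
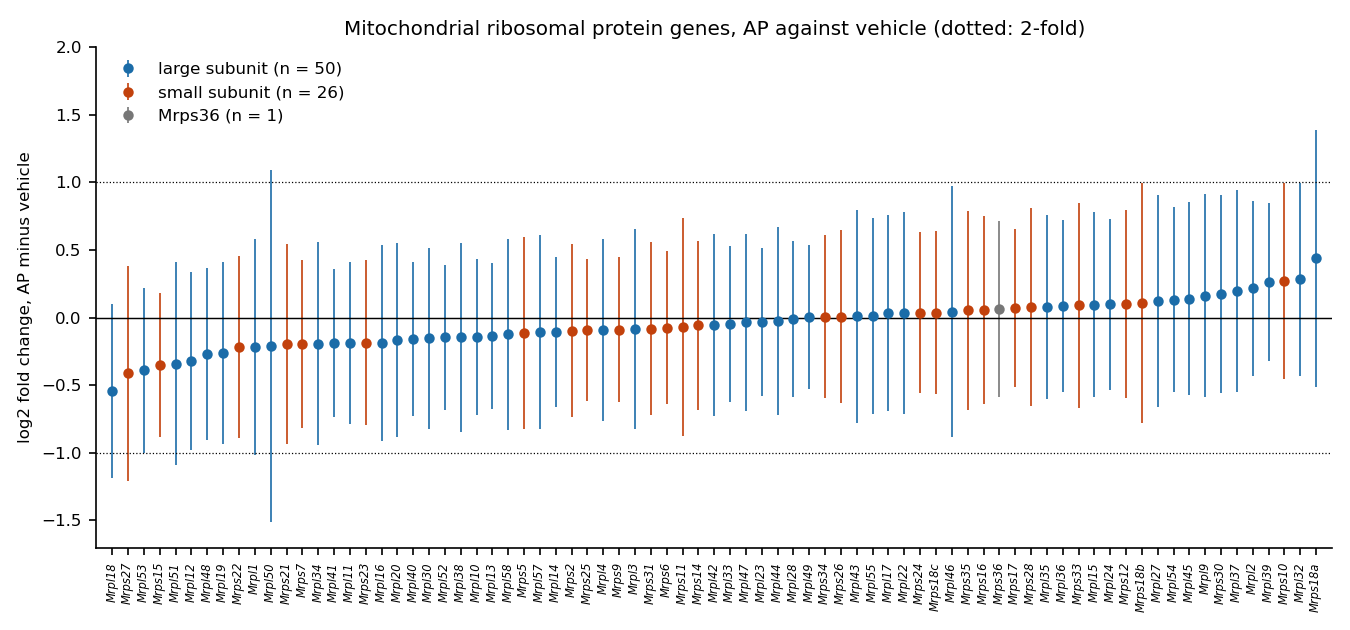
Log2 fold change (y axis, AP minus vehicle, n = 2 each) of the 77 compared members, ordered by value along the x axis and coloured by subunit. Points are limma estimates and bars their 95% intervals; all intervals include 0, and 70 lie within the dotted lines at 2-fold.

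The lowest values belonged to proteins of both subunits. Mrpl18 (probe A_51_P210474), the mitochondrial counterpart of a bacterial protein that binds 5S RNA and the source of a cytosolic form in heat shock, had levels of 4.90 and 4.68 in the vehicle samples and of 4.43 and 4.06 in the AP samples. Both AP samples were lower, and the log2 fold change was -0.54 (SE 0.24, 95% interval -1.19 to 0.10), or -0.36 without AP sample 2. Mrps27, a small-subunit protein with pentatricopeptide repeats, stood at 2.47 and 1.80 in the vehicle samples and at 1.76 and 1.69 in the AP samples. Its vehicle sample 2 lay next to the AP samples, and its log2 fold change of -0.41 became -0.07 without vehicle sample 1 and -0.75 without vehicle sample 2. Mrpl53, a large-subunit protein without a bacterial counterpart, had 6.09 and 5.82 with vehicle and 5.45 and 5.69 with AP, and the log2 fold change was -0.39 (SE 0.23), or -0.26 without vehicle sample 1.

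Mrps15, a small-subunit protein that contacts the RNA of the small subunit, had 4.36 and 4.47 with vehicle and 4.06 and 4.07 with AP. It was one of the members whose vehicle samples lay close together, and its log2 fold change of -0.35 (SE 0.20) held between -0.41 and -0.30 with any 1 sample left out. Mrpl51, a large-subunit protein of the mitochondrial lineage, had 7.80 and 7.25 with vehicle and 7.04 and 7.33 with AP, so that its samples overlapped at a log2 fold change of -0.34, which was -0.07 without vehicle sample 1 and -0.61 without vehicle sample 2. Mrpl12, the stalk protein that receives translation factors and also binds the mitochondrial RNA polymerase, had 6.67 and 6.28 with vehicle and 6.04 and 6.26 with AP. Both AP samples of Mrpl12 were lower, the higher of them by little, at a log2 fold change of -0.32 (SE 0.25), which was -0.12 without vehicle sample 1 and -0.52 without vehicle sample 2. The other members with both AP samples below both vehicle samples were Mrpl41, Mrpl11, Mrpl40, Mrpl52, Mrpl13, Mrps25 and Mrps9, with log2 fold changes from -0.19 to -0.09.

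In the genes with the highest values vehicle sample 2 was the lowest sample, which a ranking by AP minus vehicle favours. Mrps18a (probe A_51_P275083), which despite its symbol sits in the large subunit, had 5.07 and 4.17 with vehicle and 5.07 and 5.05 with AP. Vehicle sample 2 was low, and the other samples were alike. Its log2 fold change of 0.44 (SE 0.36, 95% interval -0.51 to 1.39) was -0.01 without vehicle sample 2 and 0.89 without vehicle sample 1. Mrpl32, a large-subunit protein that is matured by the m-AAA protease of the inner membrane, had 3.58 and 3.07 with vehicle and 3.50 and 3.72 with AP, and the log2 fold change was 0.28, which was 0.03 without vehicle sample 2. Mrps10, a protein of the small subunit, had 4.51 and 3.94 with vehicle and 4.47 and 4.51 with AP, and the log2 fold change was 0.27, which was -0.02 without vehicle sample 2. In both genes vehicle sample 2 was the lowest of the 4.

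Mrpl39, a large-subunit protein of the mitochondrial lineage, was the single member with both AP samples above both vehicle samples. It had 4.90 and 4.64 with vehicle and 5.10 and 4.97 with AP, and the log2 fold change was 0.26 (SE 0.22, 95% interval -0.32 to 0.85), which was 0.13 without vehicle sample 2 and 0.40 without vehicle sample 1. It was also among the members with the NRF1 core in the promoter stretch shown above. Mrpl2, which lies near the catalytic centre of the large subunit, had 6.43 and 6.11 with vehicle and 6.35 and 6.63 with AP, and the log2 fold change was 0.22, which was 0.05 without vehicle sample 2. Mrpl37, a large-subunit protein, had 2.68 and 2.07 with vehicle and 2.59 and 2.55 with AP, and the log2 fold change was 0.20, which was -0.10 without vehicle sample 2. The samples of both genes overlapped.

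**Figure D3:**
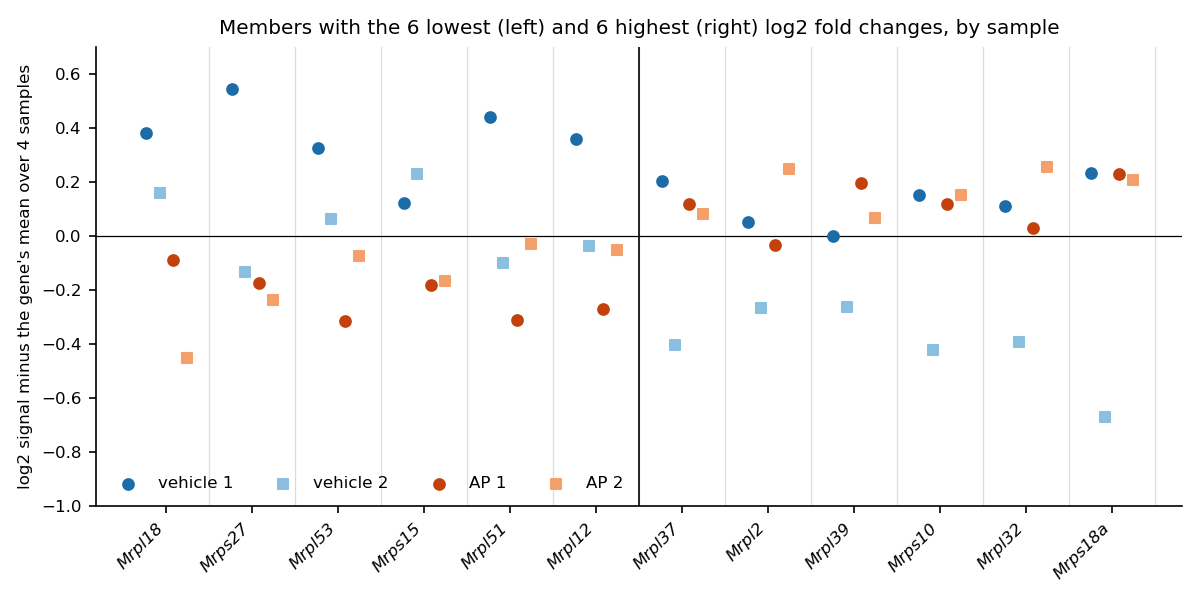
Level of each sample (y axis, log2 signal minus the gene's mean over the 4 samples) for the 6 members with the lowest and the 6 with the highest log2 fold change (x axis). Vehicle 2 was the lowest sample in each of the 6 genes on the right, and in Mrps18a it lay 0.90 below vehicle 1. Ranking by AP minus vehicle favours genes with a low vehicle sample, and vehicle 2 was the lowest for 57.1% of the members.

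The 50 compared proteins of the large subunit had a median log2 fold change of -0.051, with 20 above 0, and the 26 of the small subunit had -0.064, with 12 above 0. Proteins with a bacterial counterpart gave medians of -0.048 in the large subunit (29 genes) and -0.064 in the small subunit (16 genes). Those found in mitochondrial ribosomes alone gave -0.054 (21 genes) and -0.037 (10 genes). By symbol, the 48 Mrpl genes had a median of -0.069 and the 29 Mrps genes 0.007.

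The Mrps18 genes are 3 related genes whose proteins take different places in the ribosome. Mrps18b had 6.24 and 5.57 with vehicle and 5.78 and 6.24 with AP, and the log2 fold change was 0.10 with an SE of 0.33. Mrps18c had 4.94 and 4.61 with vehicle and 4.76 and 4.86 with AP, and the log2 fold change was 0.04. Both overlapped between the groups, and both turned below 0 without vehicle sample 2 and also without AP sample 2. Mrps30, which like Mrps18a sits in the large subunit, had 4.51 and 3.92 with vehicle and 4.36 and 4.41 with AP, with a log2 fold change of 0.17 that was -0.12 without vehicle sample 2. Mrpl58, a peptidyl-tRNA hydrolase built into the large subunit that can rescue stalled ribosomes, had 5.65 and 5.21 with vehicle and 5.14 and 5.47 with AP, and the log2 fold change was -0.12. Mrps36 keeps its old symbol but is a component of the 2-oxoglutarate dehydrogenase complex of the citric acid cycle. It had 7.13 and 6.69 with vehicle and 7.02 and 6.93 with AP, and the log2 fold change was 0.06.

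For 21 member genes 2 probes were compared. The probes had the same sign in 12 genes and opposite signs in 9, namely Mrpl15, Mrpl22, Mrpl41, Mrpl43, Mrpl47, Mrps14, Mrps17, Mrps2 and Mrps33. The median difference in log2 fold change between the probes of a gene was 0.134. The difference was widest for Mrpl41, a large-subunit protein also studied for a role in cell death, at 0.387. Its brighter probe had -0.19, with both AP samples lower, and its dimmer probe had 0.20. In Mrpl22 the probes had 0.03 and -0.22, in Mrps17 0.07 and -0.16, in Mrps14 -0.06 and 0.17, and in Mrps2 -0.10 and 0.13. In Mrpl15, Mrpl43, Mrpl47 and Mrps33 all probes lay within 0.10 of 0 on the log2 scale. The lowest p of any member probe was 0.0676 in limma (adjusted p = 0.80), for the dimmer probe of Mrps7, a small-subunit protein, which was chosen here after its values were seen. That probe had a log2 fold change of -0.48, while the brighter Mrps7 probe had -0.20 with overlapping samples.

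The members differed between the vehicle samples, whose arrays differed in the first position number, and they did so together. Vehicle sample 1 was the highest of the 4 for 67 of the 77 genes (87.0%, against 28.3% of all named genes), and vehicle sample 2 was the lowest for 44 (57.1%, against 35.9%). Vehicle sample 2 was below vehicle sample 1 for 73 genes (94.8%, against 59.6%), with a median log2 difference of -0.406 (-0.103 over all named genes). Between the AP samples the median log2 difference was 0.098 (-0.012 over all named genes). AP sample 2 was above AP sample 1 for 57 members, against 6240 of the 12788 named genes. The median gap was 0.406 within the vehicle pair and 0.147 within the AP pair, and the vehicle gap was the larger for 69 genes (89.6%, against 55.4% of all named genes). The log2 fold change with AP exceeded the gap of the vehicle pair in size for 8 of the 77 genes. That count was not made over all named genes, so whether it is low for this array is not known. For 39 genes both AP samples lay between the vehicle samples (50.6%, against 19.1%). As deviations from each gene's mean, the medians of the 77 genes were 0.221 and -0.176 in vehicle samples 1 and 2, and -0.077 and 0.024 in AP samples 1 and 2.

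Because the vehicle samples lay on either side of the AP samples, the direction of the comparison turned with the vehicle sample used. Without vehicle sample 1 the median log2 fold change of the members was 0.135 (0.064 over all named genes) and 55 members were above 0. Without vehicle sample 2 it was -0.236 (-0.018 over all named genes) and 5 members were above 0. Without AP sample 1 the median was 0.022 (0.018 over all named genes) with 41 members above 0. Without AP sample 2 it was -0.111 (0.005 over all named genes) with 20 members above 0. The share of all named genes above 0 was not counted in these settings. Mrps18a then had an unadjusted limma p of 0.0299 without vehicle sample 1, and Mrps27 one of 0.0487 without vehicle sample 2, with no adjusted p under 0.05 in either case.

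Nuclear genes of the respiratory chain, whose proteins assemble with the products of the mitochondrial ribosome, stood in the same order. Over 83 such genes the median deviations were 0.216 and -0.185 in vehicle samples 1 and 2, and -0.020 and 0.002 in AP samples 1 and 2. Their median log2 fold change was -0.019. The 82 genes of the cytosolic ribosome, which builds proteins outside mitochondria, had median deviations of 0.002, 0.018, -0.031 and 0.002 in the same samples and a median log2 fold change of -0.012. The samples thus differed in the mitochondrial gene groups and hardly in the cytosolic ribosome, and no test of this difference between groups was made. In bulk tissue, fewer cells of a type and less RNA per cell cannot be told apart.

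Markers of other cell types moved with the samples in the opposite order. All 11 skeletal muscle markers were compared, and 11 of 11 were lowest in vehicle sample 1 and highest in vehicle sample 2, with median deviations of -2.624 and 1.704, and of 0.920 and -0.009 in AP samples 1 and 2. Their summed level, as log2, was 5.53 and 9.77 with vehicle, and 9.09 and 8.19 with AP, and the myosin heavy chain Myh4 stood at 3.84, 7.83, 7.58 and 6.63. Of 12 leukocyte markers 9 were compared, and all 9 were highest in vehicle sample 2, with summed levels of 5.11 and 6.98 with vehicle, and of 5.43 and 5.33 with AP. Cd79a was not well above background on any array, and no probe was matched to Cd68. The 10 brown fat markers had summed levels of 12.66 and 11.99 with vehicle and 12.35 and 12.54 with AP. The sum was lowest in vehicle sample 2, but it rests on the brightest probes, and 5 of the 10 markers were higher in vehicle sample 2 than in vehicle sample 1. Ucp1 had 10.41 and 9.66 with vehicle and 9.66 and 10.25 with AP. The part of these marker levels in the members' values was not tested.

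**Figure D4:**
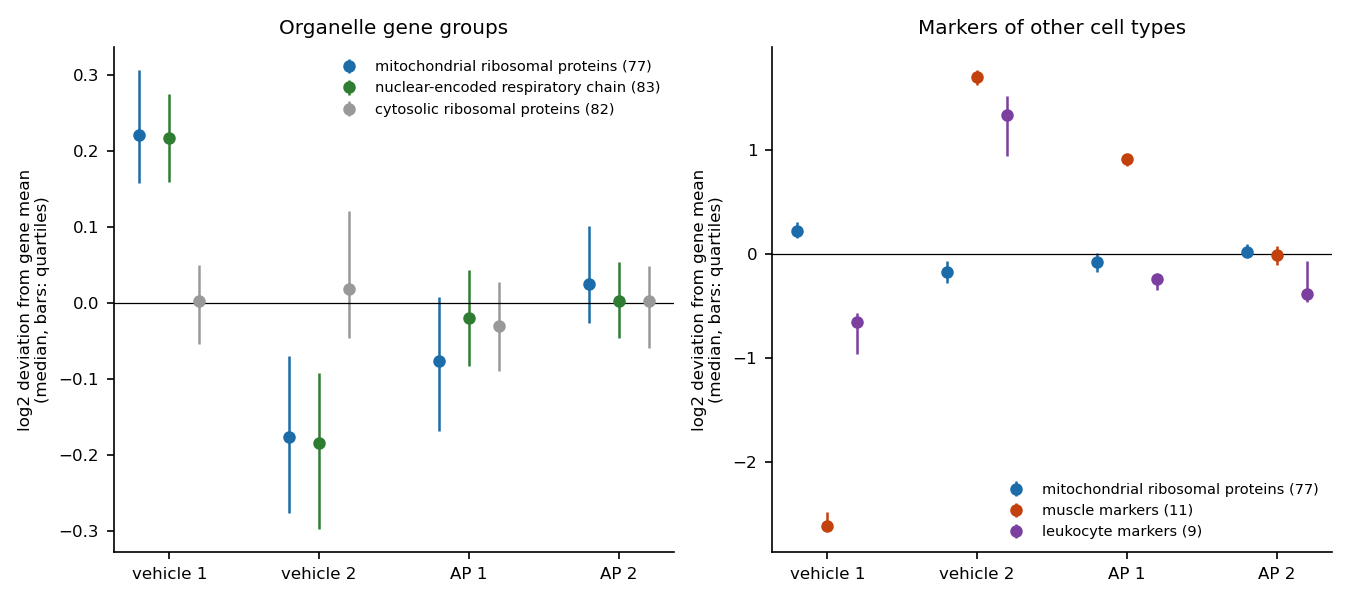
Median deviation from each gene's mean (y axis, log2, bars are quartiles over genes) in the 4 samples (x axis), for the 77 mitochondrial ribosomal protein genes beside respiratory chain and cytosolic ribosomal protein genes (left) and beside muscle and leukocyte markers (right). The members run from 0.221 in vehicle 1 to -0.176 in vehicle 2 with the respiratory chain genes, while the muscle markers run from -2.624 to 1.704.

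Proteins of the mitochondrial ribosome with other names gave a median log2 fold change of -0.219 over 5 genes, 3 of which had both AP samples below both vehicle samples (60.0%, against 17.3% of all named genes). These were Gadd45gip1, a large-subunit protein also known as a binding partner of Gadd45 proteins (vehicle 4.93 and 4.70, AP 4.39 and 4.69), Chchd1 of the small subunit (6.79 and 6.49, AP 6.33 and 6.44) and the pentatricopeptide repeat protein Ptcd3 (5.28 and 4.97, AP 4.94 and 4.87). Their log2 fold changes were -0.28, -0.26 and -0.22, and without vehicle sample 1 they were -0.17, -0.11 and -0.07. Aurkaip1 and Dap3, both of the small subunit, had overlapping samples and log2 fold changes of 0.07 and 0.06.

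Factors that work with the ribosome were mixed. Of 14 translation factors 13 were compared, with a median log2 fold change of -0.060. Both AP samples were higher for 2 of them and lower for 2 (15.4% each), and none had an unadjusted p under 0.05. Tufm, the elongation factor that brings tRNAs to the ribosome, had 5.73 and 5.34 with vehicle and 5.36 and 5.25 with AP, and the log2 fold change was -0.23 with overlapping samples, or -0.03 without vehicle sample 1.

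Of 25 genes for assembly of the mitochondrial ribosome 24 were compared. Their median log2 fold change was 0.129, with 19 above 0, and both AP samples were higher for 5 genes (20.8%, close to the 20.1% of all named genes) and lower for 0 (against 17.3%). Ngrn, which acts in the maturation of the large subunit and its 16S RNA, was the gene of these lists with an unadjusted p under 0.05. Such a p was thus found for 1 of the 24 assembly genes, against 6.04% of all named genes. Ngrn had 4.17 and 4.02 with vehicle and 4.88 and 4.73 with AP, and the log2 fold change was 0.71 (SE 0.21, 95% interval 0.16 to 1.26, unadjusted limma p of 0.0222, adjusted p = 0.80). Its value held between 0.64 and 0.78 with any 1 sample left out.

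Regulators and factors of mitochondrial DNA expression had a median log2 fold change of 0.162 over 16 genes, with 12 above 0. Both AP samples were higher for 5 genes (31.2%, against 20.1% of all named genes) and lower for 2 (12.5%, against 17.3%), and none had an unadjusted p under 0.05 by its brightest probe. Nrf1, the factor whose motif is described above, had 0.22 and 0.34 with vehicle and 0.69 and 0.97 with AP, and the log2 fold change was 0.55 (SE 0.22, 95% interval -0.04 to 1.13) by its brightest probe. A dimmer probe had -2.19 and -2.90 with vehicle and -1.76 and -0.18 with AP, and the dimmest had -5.76 and -4.40 with vehicle and -3.18 and -2.51 with AP and was well above background on 2 of the 4 arrays. The dimmest probe thus entered the comparison through the AP group alone, where it was higher. The mean of the Nrf1 probes includes it, so its log2 fold change of 1.45 is a description and no support. With the brightest Nrf1 probe the unadjusted limma p was 0.0426 with median scaling and 0.0365 with normexp, with no adjusted p under 0.05. Tfam, which packages mitochondrial DNA and starts its transcription, had 2.97 and 2.62 with vehicle and 3.11 and 3.27 with AP by its brightest probe. Its log2 fold change was 0.40, or 0.22 without vehicle sample 2. A dimmer Tfam probe had 0.24 and the dimmest 0.55, both with overlapping samples. Gabpa, the DNA-binding subunit of GABP, had 2.13 and 1.51 with vehicle and 2.13 and 2.24 with AP by its brightest probe. Its log2 fold change was 0.37, or 0.06 without vehicle sample 2. The dimmer Gabpa probe had 0.60 with overlapping samples. Ppargc1a, a coactivator of mitochondrial biogenesis, had 1.26 and 2.14 with vehicle and 1.63 and 2.52 with AP, so that its samples overlapped at a log2 fold change of 0.37, which was -0.07 without vehicle sample 1 or without AP sample 2. Polrmt, the mitochondrial RNA polymerase, had 2.32 and 2.34 with vehicle and 2.26 and 2.47 with AP, and the log2 fold change was 0.03.

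**Figure D5:**
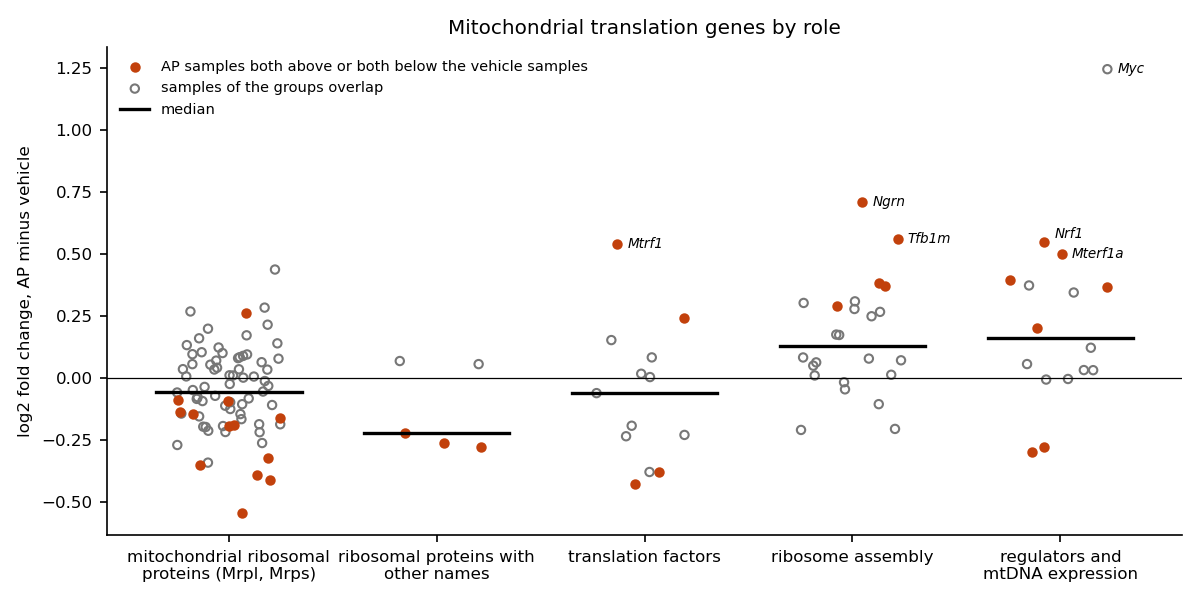
Log2 fold change (y axis, AP minus vehicle) of single genes (points) by role in mitochondrial translation (x axis), with the median of each group as a bar. Filled points mark genes whose AP samples lie both above or both below the vehicle samples; the members centre on -0.054, the assembly genes on 0.129 and the regulators on 0.162.

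The promoter motifs were set beside the changes as a description. The 16 compared members with an NRF1 core in a window had a median log2 fold change of -0.008, and the 52 without had -0.064. The 25 with an ETS core had -0.083, and the 43 without had -0.054. Between the vehicle samples the median log2 difference, vehicle 2 minus vehicle 1, was -0.473 with and -0.397 without an NRF1 core, and -0.497 with and -0.385 without an ETS core. Mrpl18 and Mrps18a, at the ends of the range, both had an ETS core in their windows, which began 240 bases before the start of Mrpl18.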

How the data were processed

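BAT RNA of 2 vehicle and 2 AP samples was hybridized by the authors to 1-color Agilent SurePrint G3 Mouse 8x60K arrays (slide design on mm9) and read with Agilent Feature Extraction 10.7.1.1, named in the submitters' processing notes. The deposited scanner files hold spot intensity (processed signal, background-subtracted by that software), and a deposited table holds log2 values of the same arrays, whose array differences matched those computed here (lowest r = 1 after rounding, over 24868 probes). The centring of that table is not given in the sources used here; its array medians were -0.28 and -0.16 for vehicle and -0.44 and -0.29 for AP.

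Here the log2 processed signal minus the 75th percentile of all non-control spots of the array was used (percentiles of 118.9 and 158.7 for vehicle, 127.6 and 118.5 for AP). Spots with an outlier flag were left out, and the remaining spots of 1 probe were averaged. Probes with no spot left on any 1 of the arrays were left out, so no fit dropped a sample. Probes well above background on both arrays of a group entered a linear model in limma 3.58.1 (R 4.3.3; lmFit, then eBayes) with Benjamini-Hochberg adjustment over all 24973 probes; the 95% intervals use the moderated degrees of freedom. Between 46.4% and 49.0% of the spots were well above background, and no spot was saturated. Precision is limited by the number of arrays. The script was tested on simulated data.

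Probe accessions were named through the RefSeq GRCm38.p6 gene table (26576 of 55681 probes), and no gene coordinates are given because the array was designed on mm9. A gene with several probes is given by its brightest probe. Named members are the 6 lowest and 6 highest, those with an unadjusted p under 0.05, those with probes of opposite sign, and Mrps18a, Mrps18b, Mrps18c, Mrps30, Mrps36, Mrpl12 and Mrpl58; of other lists, genes with an unadjusted p under 0.05 and set examples. Members, lists and this rule were chosen with earlier results of these data known, and subunit classes came from general knowledge. The respiratory chain list left out Nduf assembly factors after the data were seen.

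Same-numbered samples correlated at r = -0.13 in their deviations, so the numbers were not taken as pairs. The alternatives were normexp (offset 50), quantile and median scaling, other filters, a variance trend, the deposited table, the methods' t-test, a replicate block, all probes of a gene, and leaving out each sample. A block for slide or scan could not be fitted, since there was 1 of each. Protein sequences were not used here. A marker of the leukocyte list is not reported here.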

Additional observations from a re-analysis of the deposited data

How the results depend on the processing

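No probe passed an adjusted p of 0.05 under any setting run. In all 10 planned settings that keep all samples, the members' median log2 fold change moved by less than 0.205, the spread between samples of a group. With 1 sample left out it lay between -0.236 and 0.135, and that of all named genes between -0.018 and 0.064. The count of members above 0 was 33, against 7 in the deposited log2 table and 5 to 55 with 1 sample left out. The count of members with an unadjusted limma p under 0.05 was 0, against 2 with normexp (Mrpl18 and Mrpl53), 1 with the variance trend (Mrpl18), 1 in the deposited table (Mrpl18), 1 by the methods' t-test (Mrps15), and 0 to 1 with 1 sample left out.

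Of the 42 named genes, 20 kept their direction in every setting run. The deposited table had a median log2 fold change of -0.152 over all named genes, against 0.011 in the main scaling. In that table the log2 fold change turned to -0.092 for Aurkaip1, -0.105 for Dap3, -0.066 for Mrpl15 and -0.127 for Mrpl22. It turned to -0.151 for Mrpl43, -0.091 for Mrps17, -0.057 for Mrps18b, -0.125 for Mrps18c, -0.072 for Mrps33, -0.097 for Mrps36 and -0.129 for Polrmt. With the mean of a gene's probes it turned to -0.094 for Mrpl22, 0.003 for Mrpl41, 0.022 for Mrpl47, 0.055 for Mrps14, -0.044 for Mrps17 and 0.016 for Mrps2. With median scaling it turned to 0.050 for Mrpl47, 0.027 for Mrps14 and 0.005 for Ucp1, and with normexp to -0.132 for Mrps17, -0.036 for Mrps18c and -0.014 for Polrmt. The causes were not tested.

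With 1 sample left out, the lowest and highest log2 fold changes were -0.103 to 0.242 for Aurkaip1, -0.086 to 0.200 for Dap3, -0.115 to 0.306 for Mrpl15, -0.264 to 0.334 for Mrpl22, -0.104 to 0.502 for Mrpl37, -0.303 to 0.325 for Mrpl43, -0.212 to 0.142 for Mrpl47, -0.342 to 0.094 for Mrpl58, -0.018 to 0.555 for Mrps10, -0.250 to 0.135 for Mrps14, -0.056 to 0.197 for Mrps17, -0.014 to 0.889 for Mrps18a, -0.232 to 0.441 for Mrps18b, -0.128 to 0.201 for Mrps18c, -0.269 to 0.075 for Mrps2, -0.120 to 0.465 for Mrps30, -0.223 to 0.402 for Mrps33, -0.153 to 0.282 for Mrps36, -0.073 to 0.137 for Polrmt, -0.074 to 0.820 for Ppargc1a and -0.457 to 0.298 for Ucp1. A lone sample of a group was then assumed to vary like the other group.

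With the replicate number as a replicate block, 0 probes passed an adjusted p of 0.05 and 1226 had an unadjusted p under 0.05, against 1515 without it, with 0 members among them in both fits; the block changed no call. With the pairing crossed, added after the data were seen, these counts were 0 and 1566. A block for slide or scan was not run. A value whose interval includes 0 was not shown to be without change.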

Other observations

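The members Mrpl23, Mrpl52, Mrps15 and Mrps17 departed from the order of the vehicle samples shared by the others, and were named after their values were seen. Mrpl23, a large-subunit protein next to the exit of the ribosomal tunnel, had 5.59 and 5.78 with vehicle and 5.67 and 5.64 with AP. Mrpl52 had 5.26 and 5.39 with vehicle and 5.17 and 5.19 with AP. Mrps17 of the small subunit had 3.78 and 3.92 with vehicle and 3.80 and 4.05 with AP. Together with Mrps15 these were the 4 genes with vehicle sample 2 above vehicle sample 1. Mrpl50, a large-subunit protein of the mitochondrial lineage, had the widest gap, at 5.18 and 4.03 with vehicle and 4.03 and 4.76 with AP. Its log2 fold change was -0.21 with a 95% interval from -1.51 to 1.09. The dimmer Mrpl50 probe had -0.58 with overlapping samples (95% interval -1.71 to 0.56). That is below the value of Mrpl18, the lowest gene by its brightest probe.

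Among the marker lists, Lep, the fat hormone leptin, was the gene with an unadjusted p under 0.05. Over all named genes 6.04% had such a p. Lep had 0.04 and 1.45 with vehicle and -0.63 and -0.63 with AP. Its log2 fold change was -1.38 with an unadjusted limma p of 0.0465 (adjusted p = 0.80). It was -2.08 without vehicle sample 1 and -0.67 without vehicle sample 2. Of the 8 white fat markers on its list 4 were compared, and 3 were lower with AP and 1 higher. Nnat had -1.37 with overlapping samples, Retn -0.38 and Agt 0.75. The paper reports leptin expression as unchanged by the stress response.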
